A study of Mus musculus with 6 samples.

Results

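A set of 7 genes of the peroxisome proliferator-activated receptor (PPAR) response and of the lipid droplet was followed in mouse macrophages exposed to oxidized LDL: *Pparg*, *Plin2*, *Fabp4*, *Fabp5*, *Lpl*, *Angptl4* and *Pdk4*. They were chosen by name, with earlier results of these data known, each as 1 Ensembl transcript. All 7 were found among the 81690 transcripts of the deposited table. The table itself carries no gene names, and 0 of its identifiers were found in the reference gene table, so the gene of each transcript rests on the list by which the members were chosen. The cells were resident peritoneal macrophages from female C57BL/6J mice of 8 to 12 weeks, without any genetic change, obtained by lavage and selected by adherence to plastic. In each of 3 experiments, cells pooled from several mice were split between a well that received 25 µg/mL of human LDL oxidized with copper sulfate (oxLDL) and a well that received vehicle (PBS), both for 24 h. This gave 3 oxLDL arrays and 3 vehicle arrays. The arrays with the same replicate number come from 1 pool. Markers of macrophages and of other peritoneal cells, adipocytes included, were not analysed here because they could not be paired with transcripts, so the purity of the cells was not checked.

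PPARγ, the product of *Pparg*, is a nuclear receptor that is activated by fatty acids and their oxidized derivatives, binds DNA together with the retinoid X receptor, and is best known for its part in adipocyte differentiation. In macrophages, PPARs regulate genes of fatty acid uptake, storage and oxidation. When a macrophage takes up modified LDL, the released cholesterol and fatty acids are esterified and stored in lipid droplets, and the cell becomes a foam cell. The other members cover successive steps of this handling. *Plin2* encodes perilipin 2, the main droplet coat protein of macrophages. *Fabp4* and *Fabp5* encode cytosolic fatty acid-binding proteins, *Lpl* the lipoprotein lipase that releases fatty acids from triglycerides, *Angptl4* a secreted inhibitor of that lipase, and *Pdk4* a kinase that inactivates pyruvate dehydrogenase and so spares glucose when fatty acids are burned.

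PPAR and its partner recognize a direct repeat, in which the half-site AGGTCA (6 bases) occurs in 2 copies with 1 base between them. The start-site windows of RefSeq (build GRCm38.p6), which run from 250 bases before a start to 50 bases after it, held 5 windows for 3 of the members, *Plin2*, *Pparg* and *Pdk4*. Both strands were searched for the repeat of 13 bases, allowing at most 2 mismatches in its 12 fixed bases, and for the single half-site, which is part of the repeat. A window is shown for each of these genes, the only members with any, and for *Pparg* it is 1 of 3. The windows were not compared with the changes under oxLDL. Capitals mark the match to the repeat in *Plin2*, at chr4:86670010-86670309 on the minus strand, and the half-site in *Pparg*, at chr6:115360894-115361193 on the plus strand. The window of *Pdk4*, at chr6:5496229-5496528 on the minus strand, held neither and is shown without capitals.
Plin2: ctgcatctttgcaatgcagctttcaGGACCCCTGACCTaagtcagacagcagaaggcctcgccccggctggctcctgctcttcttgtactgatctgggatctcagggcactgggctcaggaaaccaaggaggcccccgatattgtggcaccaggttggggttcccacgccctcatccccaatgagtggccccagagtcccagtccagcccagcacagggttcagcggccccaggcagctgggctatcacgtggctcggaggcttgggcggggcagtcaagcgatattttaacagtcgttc
Pparg: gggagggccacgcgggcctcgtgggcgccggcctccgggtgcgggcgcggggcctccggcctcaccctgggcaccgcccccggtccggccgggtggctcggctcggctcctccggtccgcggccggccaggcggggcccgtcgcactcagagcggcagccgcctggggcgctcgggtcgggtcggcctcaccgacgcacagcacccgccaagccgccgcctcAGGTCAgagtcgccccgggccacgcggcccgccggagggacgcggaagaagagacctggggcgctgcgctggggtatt
Pdk4: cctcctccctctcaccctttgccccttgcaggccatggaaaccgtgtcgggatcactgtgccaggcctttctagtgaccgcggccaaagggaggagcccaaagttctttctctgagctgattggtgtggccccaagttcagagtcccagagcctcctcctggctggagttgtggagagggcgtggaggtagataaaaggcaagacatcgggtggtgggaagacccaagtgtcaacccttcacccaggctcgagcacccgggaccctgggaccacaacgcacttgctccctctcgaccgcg

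The *Plin2* window held a repeat with 2 mismatches on the strand opposite to the one printed, at positions -225 to -213 from the start site. Such a match was present in 3.86% of the 32851 windows of the table, and an exact repeat in 0.0396%. The *Pparg* window held 1 half-site at positions -28 to -23, a sequence found in 16.3% of all windows, and its closest match to the repeat had 4 mismatches. A second *Pparg* window also held 1 half-site, at positions -9 to -4, and the third held none. Which of the 3 starts the measured *Pparg* transcript uses was not determined. The closest match in the *Pdk4* window had 4 mismatches. These are descriptions of the letters in the windows, and binding was not measured.

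Of the 7 transcripts, 5 rose with oxLDL. The largest rise was that of *Fabp4*, followed by *Pparg*, *Plin2*, *Fabp5* and *Lpl*, whereas the differences of *Angptl4* and *Pdk4* did not pass the test. In these bulk samples, more RNA of a gene per cell and more cells that express it cannot be told apart. The values are log2 intensities of a transcript's probes, and levels were compared between arrays for 1 transcript at a time. Between transcripts, only the changes with oxLDL were set side by side. The test was limma across the 40845 transcripts with a mean above 8.74 (log2), the median of all transcripts, with a q-value threshold of 0.05, and a call further required a change of at least 2-fold. *Angptl4* and *Pdk4* lay below this median and were taken from a fit to all 81690 transcripts. The other 5 members had a vehicle mean above it, so they did not enter the test through their oxLDL values. All 5 had a q-value below 0.05 and were higher with oxLDL, against 10.7% of tested transcripts that were higher at this threshold and 30.8% that were lower. Since the members were chosen with earlier results known, this comparison is a description. With the replicate number as a block and each transcript's own variance, 4 of the 5 were higher, against shares of 8.67% higher and 16.1% lower. The shares moved both ways when 1 array was left out. The share higher was 11.2% without oxLDL replicate 3, and the share lower was 36.3% without oxLDL replicate 2. An effect of particular arrays was not separated from that of having fewer arrays. The share higher was 6.70% without vehicle replicate 1 and 7.03% without oxLDL replicate 1, and the share lower was 20.5% without vehicle replicate 3, with all 5 members higher each time. Without both arrays of replicate 1 the shares were 3.72% higher and 13.6% lower, with 3 of the 5 members higher. The median log2 fold-change was 0.72 over these 5 and 0.47 over all 7 members, and that of all tested transcripts was -0.10. At both thresholds 1 of the 5, *Fabp4*, was called higher, against 0.686% of tested transcripts, and 0 were called lower, against 2.45%.

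**Figure D1:**
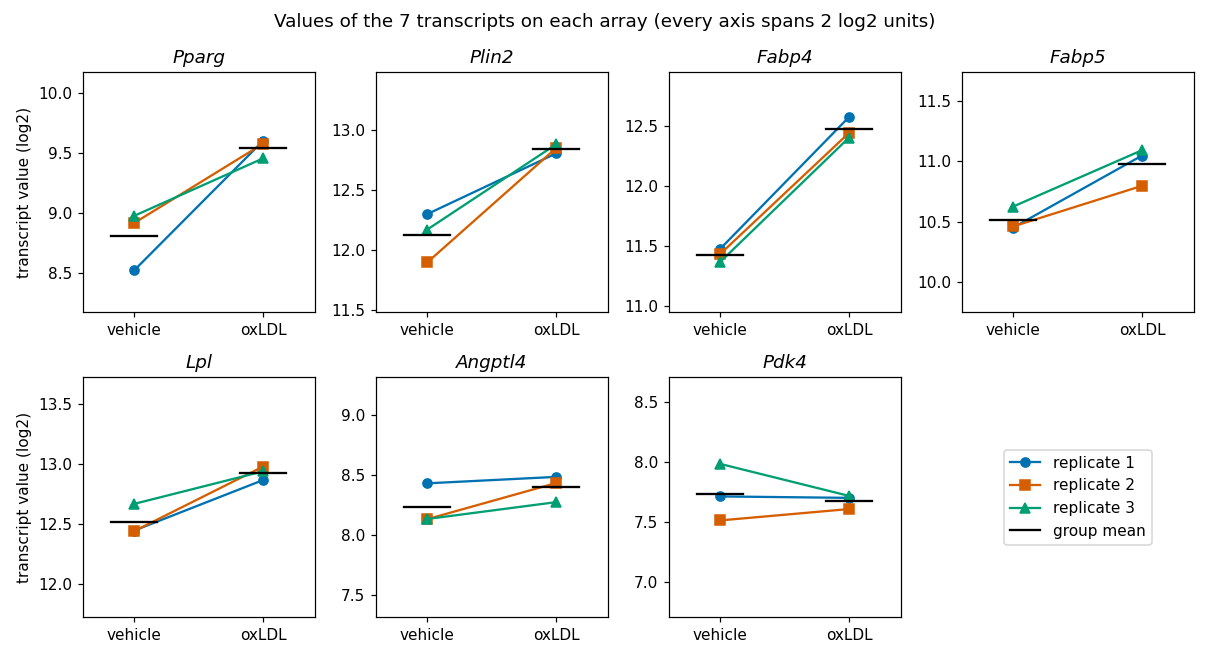
Value of each transcript (log2, vertical axis, spanning 2 units in every panel) on the vehicle and oxLDL arrays, with lines that join the arrays of 1 replicate number and black bars for the group means. The oxLDL points lie above all vehicle points for *Pparg*, *Plin2*, *Fabp4*, *Fabp5* and *Lpl*, and the groups overlap for *Angptl4* and *Pdk4*.

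The receptor transcript itself was higher with oxLDL. *Pparg* (ENSMUST00000000450_at) had values of 8.52, 8.92 and 8.97 (log2) on vehicle arrays 1, 2 and 3, and of 9.60, 9.57 and 9.45 on oxLDL arrays 1, 2 and 3. The groups did not overlap, and vehicle array 1 lay apart below the other two. The means were 8.80 ± 0.25 and 9.54 ± 0.078 (SD, n = 3 each). The log2 fold-change was 0.74 (standard error 0.12, 95% confidence interval 0.46 to 1.01, limma q = 7.19e-04), or 1.67-fold. Within the pairs the log2 change was 1.08, 0.66 and 0.48, so that it was more than 2-fold in replicate 1 only. Without vehicle replicate 1 the log2 fold-change was 0.60 (limma q = 0.00206). With the replicate number as a block and the transcript's own variance, the same change had q = 0.0541 and no longer passed the q threshold, and with the block as a random effect it had q = 1.30e-04.

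The droplet coat gene rose by a similar amount. *Plin2* (ENSMUST00000000466_at) had values of 12.30, 11.90 and 12.17 (log2) on vehicle arrays 1, 2 and 3, and of 12.81, 12.85 and 12.88 on the oxLDL arrays. All oxLDL values lay within a narrow range above the vehicle values, among which array 2 was lowest. The means were 12.12 ± 0.21 and 12.85 ± 0.038 (SD, n = 3 each), and the log2 fold-change was 0.72 (standard error 0.11, 95% confidence interval 0.47 to 0.97, limma q = 4.36e-04), or 1.65-fold. Within the pairs it was 0.50, 0.95 and 0.71, the largest being in the replicate with the lowest vehicle value.

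Of the fatty acid-binding proteins, *Fabp4*, a classical PPARγ target of adipocytes and macrophages, changed most. *Fabp4* (ENSMUST00000029041_at) had values of 11.48, 11.44 and 11.37 (log2) on vehicle arrays 1, 2 and 3, and of 12.58, 12.44 and 12.41 on the oxLDL arrays. The lowest oxLDL value was 0.93 above the highest vehicle value, the widest gap among the members. The means were 11.43 ± 0.055 and 12.48 ± 0.090 (SD, n = 3 each), and the log2 fold-change was 1.05 (standard error 0.090, 95% confidence interval 0.85 to 1.25, limma q = 1.34e-05), or 2.06-fold. The changes within the pairs, 1.10, 1.01 and 1.03, had an SD of 0.046, the smallest among the members. A larger rise was found for 243 of the tested transcripts, or 0.595%. The value lies just past the 2-fold threshold, and without oxLDL replicate 1 it was 1.00 on the log2 scale (1.99-fold) and the call at both thresholds was lost.

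The related *Fabp5* (ENSMUST00000029046_at) had values of 10.45, 10.46 and 10.62 (log2) on vehicle arrays 1, 2 and 3, and of 11.05, 10.80 and 11.09 on the oxLDL arrays. The groups did not overlap, with oxLDL array 2 the lowest of its group. The log2 fold-change was 0.47 (standard error 0.11, 95% confidence interval 0.23 to 0.70, limma q = 0.00345), or 1.38-fold, from means of 10.51 ± 0.098 and 10.98 ± 0.16 (SD, n = 3 each). The changes within the pairs were 0.60, 0.34 and 0.47, each smaller than that of *Fabp4* in the same pair. Without both arrays of replicate 1, the log2 fold-change was 0.40 and its q-value 0.0779.

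Lipoprotein lipase rose least among the 5. *Lpl* (ENSMUST00000015712_at) had values of 12.45, 12.44 and 12.67 (log2) on vehicle arrays 1, 2 and 3, and of 12.87, 12.98 and 12.94 on the oxLDL arrays. The oxLDL arrays were all above the vehicle arrays, of which array 3 came nearest. The means were 12.52 ± 0.13 and 12.93 ± 0.057 (SD, n = 3 each), and the log2 fold-change was 0.41 (standard error 0.096, 95% confidence interval 0.19 to 0.62, limma q = 0.00413), or 1.33-fold. The changes within the pairs were 0.42, 0.54 and 0.27. Without both arrays of replicate 1, the log2 fold-change was 0.40 and its q-value 0.0718.

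*Angptl4* (ENSMUST00000002360_at) had values of 8.43, 8.13 and 8.13 (log2) on vehicle arrays 1, 2 and 3, and of 8.48, 8.43 and 8.27 on the oxLDL arrays. The groups overlapped, since vehicle array 1 reached the level of the oxLDL arrays. The means were 8.23 ± 0.17 and 8.40 ± 0.11 (SD, n = 3 each), and the log2 fold-change was 0.16 (standard error 0.10, 95% confidence interval -0.075 to 0.40, limma q = 0.139). In that fit to all transcripts, 7.62% were higher and 17.3% lower at a q-value below 0.05. The interval reaches to a 1.32-fold rise, close to the rise of *Lpl*. The oxLDL array was higher in each pair, by 0.054, 0.30 and 0.14. Without vehicle replicate 1 the log2 fold-change was 0.26 (95% confidence interval 0.049 to 0.48, limma q = 0.0628). With any other single array left out it was 0.11 to 0.23. With each array centred on its median, the log2 fold-change was 0.23 and its q-value 0.0427. Its 95% confidence interval there, -0.0013 to 0.46, still included 0, and the limma p-value was 0.0511.

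*Pdk4* (ENSMUST00000019721_at) had values of 7.71, 7.51 and 7.98 (log2) on vehicle arrays 1, 2 and 3, and of 7.70, 7.61 and 7.72 on the oxLDL arrays, which all lay within the range of the vehicle arrays. The means were 7.74 ± 0.24 and 7.67 ± 0.059 (SD, n = 3 each), and the log2 fold-change was -0.061 (standard error 0.12, 95% confidence interval -0.34 to 0.21, limma q = 0.328). The changes within the pairs, -0.012, 0.095 and -0.27, did not share a direction, and the sign of the mean turned with median centring, to 0.0048, and without vehicle replicate 3, to 0.062. Without vehicle replicate 2 the mean moved the other way, to -0.17. *Angptl4* and *Pdk4* were the dimmest members, in the fourth and the second of 10 groups of 8169 transcripts ordered from dim to bright. Whether they exceeded background was not assessed.

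**Figure D2:**
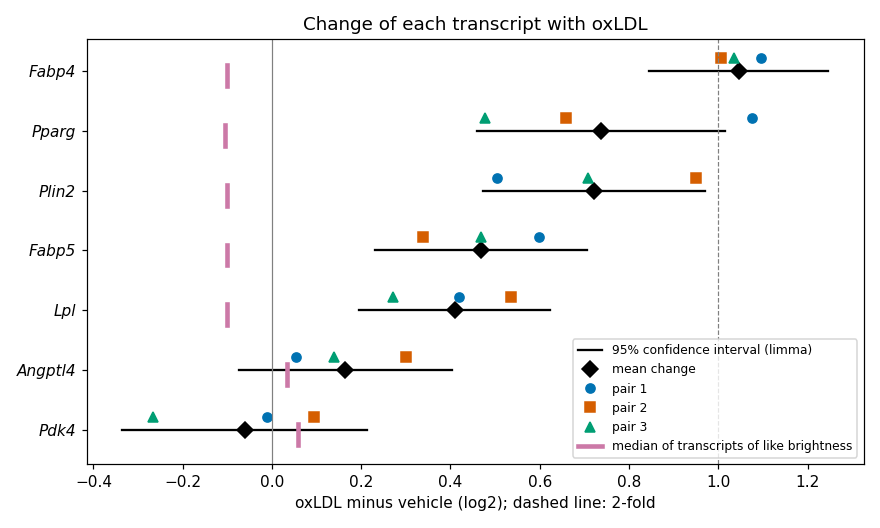
Oxidized LDL minus vehicle (log2, horizontal axis) for each transcript, ordered by size, with the mean change as a diamond, its 95% confidence interval from limma as a line, and the 3 same-numbered pairs as coloured points. The pink marks give the median change of transcripts of like brightness, which lies left of all 3 pairs for *Fabp4*, *Pparg*, *Plin2*, *Fabp5* and *Lpl*.

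The order of the changes was examined between neighbours, by the difference of the 2 transcripts on each array. *Fabp4* rose by 0.31 (log2) more than *Pparg*, by 0.020, 0.35 and 0.56 in the pairs. *Pparg* and *Plin2* differed by 0.016, and neither was ahead in all pairs. *Plin2* was 0.25 ahead of *Fabp5*, though not in replicate 1. *Fabp5* and *Lpl* differed by 0.059, with no common direction. *Lpl* was ahead of *Angptl4* in all 3 pairs, by 0.24 on average. *Angptl4* was 0.23 ahead of *Pdk4*, also in all 3. An exact permutation test of 3 arrays against 3 (two-sided) gave p = 0.20 to 1 for these 6 differences (adjusted p = 0.45 to 1), but it cannot give less than p = 0.10, so it does not settle the order.

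The groups did not overlap, with oxLDL higher, for 5 of the 5 tested members, and this was so for 12.7% of tested transcripts, while 32.5% did not overlap with oxLDL lower. All 5 were higher with oxLDL in each of the 3 pairs, as were 20.3% of tested transcripts. Of the 5, 3 (*Fabp4*, *Pparg* and *Plin2*) rose by at least 1.5-fold with a q-value below 0.05, which 2.44% of tested transcripts did. A larger rise than that of *Pparg* was found for 1.53% of tested transcripts, and the share was 1.61% for *Plin2*, 3.95% for *Fabp5* and 4.93% for *Lpl*.

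The median difference between oxLDL and vehicle arrays depended on the brightness of the transcripts, in a way that touches these values. Its cause was not tested. In the brightest of the 10 groups, which holds *Plin2*, *Fabp4*, *Fabp5* and *Lpl*, the median difference (log2, oxLDL less vehicle) was -0.064 in replicate 1, -0.0017 in replicate 2 and -0.23 in replicate 3, and -0.100 for the means. In the brightness group that holds *Pparg* it was -0.11 for the means. Relative to these medians the rises were larger, at 1.15 for *Fabp4*, 0.84 for *Pparg*, 0.82 for *Plin2*, 0.57 for *Fabp5* and 0.51 for *Lpl*. The median was above 0 in the groups that hold *Angptl4* and *Pdk4*, and the differences relative to it were 0.13 for *Angptl4* and -0.12 for *Pdk4*. The spread between pairs narrowed for *Lpl*, whose rise relative to the median was 0.48, 0.54 and 0.50 in replicates 1, 2 and 3. For *Fabp4* it widened, to 1.16, 1.01 and 1.27.

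**Figure D3:**
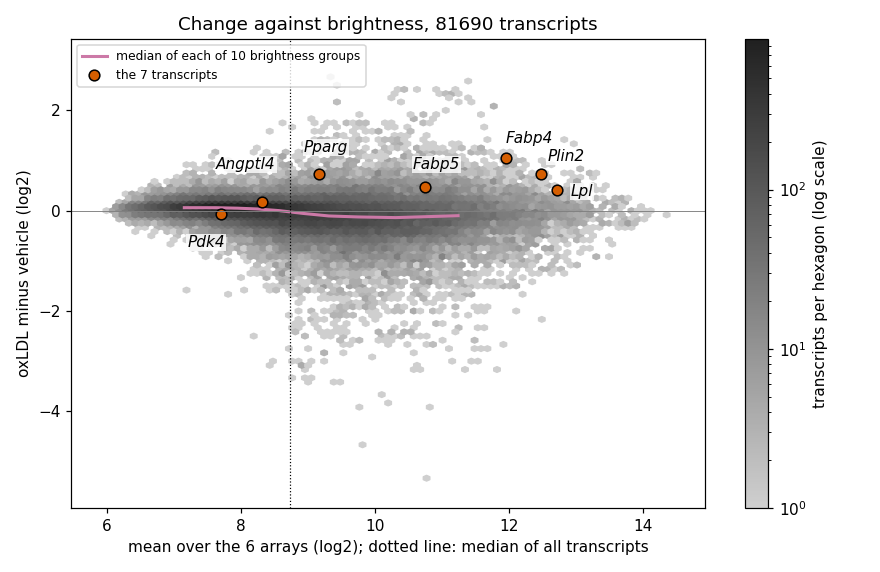
Oxidized LDL minus vehicle (log2, vertical axis) against the mean over the 6 arrays (log2, horizontal axis) for all 81690 transcripts as shaded hexagons, with the 7 transcripts as orange points and the median of each brightness group as a pink line. *Fabp4*, *Pparg*, *Plin2*, *Fabp5* and *Lpl* lie above the line and right of the dotted median of 8.74, and *Angptl4* and *Pdk4* lie left of it near 0.

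The scaling of the arrays changed the size of the rises but not their direction. After quantile normalization of the deposited values, which brought the median change over tested transcripts to 0.020, the log2 fold-change was 1.16 for *Fabp4*, 0.84 for *Pparg*, 0.81 for *Plin2*, 0.60 for *Fabp5* and 0.50 for *Lpl*. All 5 again had a limma q-value below 0.05, against 24.4% of tested transcripts that were higher at this threshold after that normalization and 21.6% that were lower. *Fabp4* had the largest rise of the 7 in each setting plotted, and *Angptl4* and *Pdk4* had the smallest values in each.

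**Figure D4:**
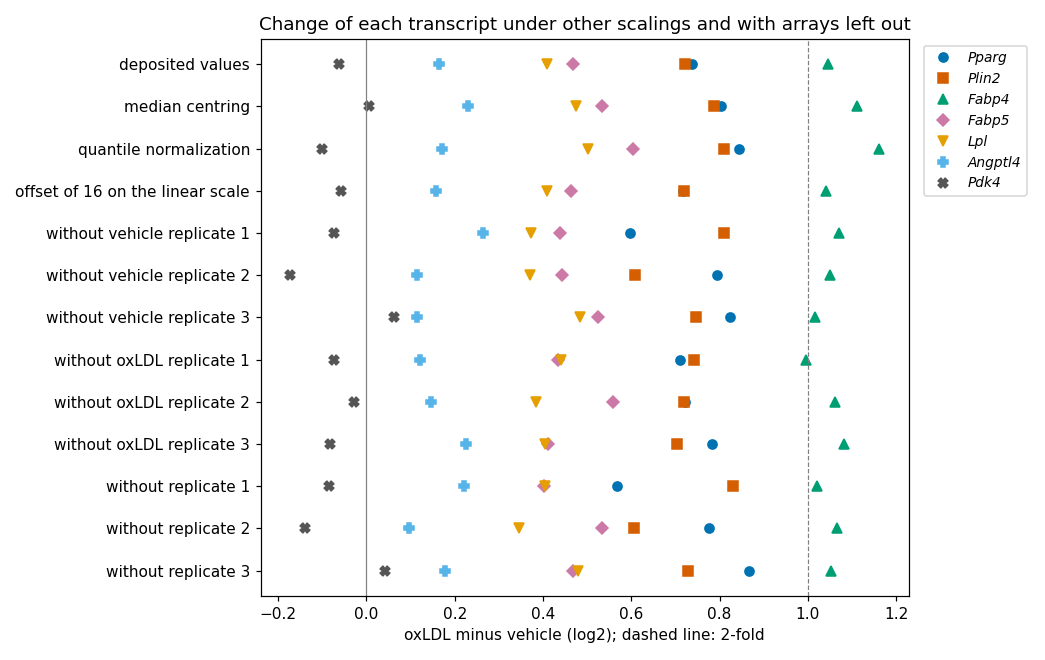
Oxidized LDL minus vehicle (log2, horizontal axis) for each transcript, 1 symbol per gene, with the deposited values, under 3 other scalings and with 1 array or 1 replicate number left out (rows). *Fabp4* stays near the dashed 2-fold line, between 1.00 and 1.16, and *Pdk4* stays near 0, between -0.17 and 0.062.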

How the data were processed

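The 6 RNA samples were profiled with the Affymetrix Mouse Exon 1.0 ST GeneChip, which carries probes to the exons of each gene. Per the methods of the study, the authors applied quantile normalization to the probe measurements, made no background adjustment, and summarized each Ensembl transcript with PLIER. The deposited table holds log2 values, a scale inferred from their range (5.95 to 14.42), and any offset is not given in the sources used here. Groups and replicate numbers came from the sample titles. The deposited values were fitted with limma 3.58.1 in R 4.3.3 (no covariate, prior proportion 0.1, 2-sided), with Storey q-values over all 40845 transcripts tested. The fit was tested on simulated data. Plots and the motif search were made in Python 3.11.15, with matplotlib 3.10.9. The members, lists and thresholds were chosen with earlier results of these data known, and all 7 members are named whatever their values. Listed pathway genes and cell type markers, and the identity of the *Fabp4* and *Fabp5* proteins, were not analysed here. No row other than the member's own held its values on all 6 arrays (tolerance 1e-06).

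Deviations from the group means correlated across the tested transcripts at 0.51, 0.67 and 0.58 between arrays of the same number and at -0.041 or less between others, and the methods place both wells of an experiment in 1 pool, so the numbers pair the arrays. Since the methods name no term for the pair, the block was an alternative, beside the adjustment, the filter, an offset, 2 scalings, the variance model, the fold threshold, and each array or pair left out. The precision is limited by 3 arrays per group. The p-values of the main fit set a difference against the spread within each group of arrays. In that fit each variance was drawn toward those of other transcripts (prior degrees of freedom 6.03), and the pairing of the wells was not used.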

Additional observations from a re-analysis of the deposited data

How the results depend on the processing

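For the 5 tested members, the fixed replicate block and the fit without replicate 2 gave every transcript 1 common variance, so these 10 q-values say nothing about stability. Of the 118 other values of the 7 members under these alternatives, 111 kept their direction and their side of the q threshold. The exceptions were *Pparg* at 0.74 with the replicate block and each transcript's own variance (q = 0.0541), *Angptl4* at 0.23 with median centring (q = 0.0427), *Pdk4* at 0.0048 with median centring (q = 0.299), *Pdk4* at 0.062 without vehicle replicate 3 and at 0.041 without replicate 3, and *Fabp5* (0.40) and *Lpl* (0.40) without replicate 1, where 2 arrays per group remain (q = 0.0779 and 0.0718). The cause was not tested. The log2 fold-change with 1 array or 1 replicate number left out ranged from 0.57 to 0.87 for *Pparg*, 0.61 to 0.83 for *Plin2*, 1.00 to 1.08 for *Fabp4*, 0.40 to 0.56 for *Fabp5*, 0.35 to 0.48 for *Lpl*, 0.097 to 0.26 for *Angptl4* and -0.17 to 0.062 for *Pdk4*. The replicate block changed no other call of a member. With this block and each transcript's own variance, however, the other 4 that rose lay close to the q threshold. Their q-values were 0.0340 for *Fabp4*, 0.0445 for *Fabp5*, 0.0464 for *Plin2* and 0.0473 for *Lpl*. *Pparg*, *Angptl4* and *Pdk4* were not tested among the brightest 25%.

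Over all tested transcripts, 280 were called higher and 1001 lower, with 267 to 317 and 828 to 1307 when an array or a replicate number was left out, and 642 lower among the brightest 25%, where fewer transcripts were tested. With no fold-change threshold 4369 were higher and 12587 lower, and 5 members were higher in place of 1. These counts were 2735 to 4565 and 8368 to 14845 with 1 array left out, the lowest being without vehicle replicate 1 and without vehicle replicate 3. They were 1521 and 5573 without replicate 1, 4051 and 6842 without replicate 3, and 3542 and 6561 with the replicate block and each transcript's own variance. The balance of higher and lower depended on the scaling, since at the q threshold alone 9955 were higher and 8842 lower after quantile normalization, and 7543 higher and 11175 lower after median centring. With the fold-change threshold, quantile normalization gave 383 higher and 753 lower. The number of members called at both thresholds was 0 to 1 with an array or a replicate number left out, the 0 being without oxLDL replicate 1. Signal over background was not assessed, which limits *Angptl4* and *Pdk4* most.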

Other observations

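The vehicle arrays spread more than the oxLDL arrays for 5 of the 7 members, *Pparg* (SD 0.25 and 0.078), *Plin2* (0.21 and 0.038), *Lpl* (0.13 and 0.057), *Angptl4* (0.17 and 0.11) and *Pdk4* (0.24 and 0.059), and less for *Fabp4* and *Fabp5*. Each SD rests on 3 arrays. The share of all tested transcripts with a larger vehicle SD was not computed, so the count is not shown to be particular to the members. For the same 5, the pair with the lower vehicle value had the larger change. *Pparg*, for example, rose most in replicate 1 and *Plin2* in replicate 2, where their vehicle values were lowest. The change within a pair holds the vehicle value with a minus sign, so this order is favoured by construction, and with 3 pairs it was not tested.

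The transcripts outside the 7 whose values over the 6 arrays were most like the mean of the members, each centred on its own mean, were ENSMUST00000023312_at, which was 1.15 (log2) higher with oxLDL, and ENSMUST00000145992_at, which was 2.50 higher. Their genes were not identified here. Since the arrays form 2 groups, this likeness reflects the difference between the groups. A likeness of over 0.9 (Pearson's r over 6 arrays, a description) was found for 6.13% of the 40840 other tested transcripts. Among the members themselves it ranged from 0.92 to 0.97 for the 5 that rose, which enter the mean, and was 0.58 for *Angptl4* and -0.026 for *Pdk4*.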
